A study of Mus musculus with 27 samples.

Results

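Hematopoietic progenitors (HP cells, KIT+TIE2-CD41+) are the blood cells that differentiating ESC cultures release once hemogenic endothelium has undergone its transition to blood. HP cells in which AP-1 was blocked for 2 days by a doxycycline (DOX)-induced dominant-negative FOS peptide (dnFOS) were compared with HP cells that received no DOX, over all genes on the array. The comparison used 4 of the 27 one-colour Agilent mouse arrays of the study, with n = 2 in each group. The other arrays covered untreated FLK1+ cells, whole blast cultures at 5 h and at 1 day with and without DOX, and sorted smooth muscle (SM) cells, early (HE1, KIT+TIE2+CD41-) and late (HE2, KIT+TIE2+CD41+) hemogenic endothelium with and without DOX for 2 days.

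All cells came from A2lox mouse ESCs that carry a Flag-tagged dnFOS cassette, switched on by DOX, at the Hprt locus. The line was made by G418 selection and picking of clones, and the number of clones behind these arrays is not given in the sources used here. ESCs were grown on mouse embryonic feeder cells and differentiated for 3.75 days as embryoid bodies, and purified FLK1+ cells then entered blast culture with 1 µg/ml DOX or with 0 µg/ml. Both HP groups thus carried the cassette, and no cells without it were given DOX. An effect of DOX itself and the effect of the peptide cannot be told apart.

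AP-1 is a family of dimeric transcription factors assembled from FOS, JUN, ATF and BATF proteins, through which growth factor, cytokine and stress signals reach their target genes. dnFOS pairs with JUN proteins and keeps the pair off DNA. Early progenitors give rise to erythroid, megakaryocytic and myeloid cells. PU.1 (encoded by Spi1), C/EBP proteins and IRF8 direct the myeloid branch, and GATA1 with its partners the erythroid and megakaryocytic branches. Type I interferons act through a complex with STAT2 and IRF9 that binds interferon response elements in front of a shared set of antiviral genes, many of which macrophages and their precursors also express without infection.

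Levels are given as log2 signal relative to the 75th percentile of the same array. Differences are DOX minus untreated on that log2 scale, with the standard error (SE) of a limma fit to all arrays. The DOX and the untreated array of each replicate number shared a slide and a scan day, so that each difference could also be read within a slide. The 75th percentile signal was 289 and 396 on the untreated and 236 and 309 on the DOX arrays, 62.4% to 66.0% of probes were well above background, and 0 probes were saturated. Testing required a probe well above background on both arrays of at least 1 group, and a gene was called at an adjusted p under 0.05 with at least a 2-fold difference. Where a gene was above background on no array of the lower group, the difference is given as a lower bound against background. No source states that the replicates came from separate differentiations, so that p-values measure only the spread between these arrays, and the number of arrays limits the precision.

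Hprt, the locus of the cassette, measured 2.96 and 3.47 without DOX and 4.96 and 5.73 with DOX. Both DOX arrays lay above both untreated arrays, by 1.99 and 2.26 within the slides, an order that 25.6% of all genes tested had. Whether this rise stems from the cassette was not tested. The log2 difference of 2.12 (SE 0.58, limma adjusted p = 0.428) missed the threshold. All 7 progenitor markers (Kit, Itga2b, Runx1, Gata2, Tal1, Myb and Gfi1b) were above background on all 4 HP arrays. Their summed linear signal, in multiples of the 75th percentile of the array, was 143 and 168 without DOX and 175 and 255 with DOX. Tek, the transcript of TIE2, on whose absence the cells were sorted, was still above background, at 1.5 and 0.375 without and 0.262 and 0.222 with DOX. All 5 SM markers were above background on every HP array as well, with sums of 53.3 and 265.5 without and 72.6 and 234 with DOX, so that both replicate 2 arrays stood apart from both replicate 1 arrays. Of the 5 feeder markers 3 were above background on all HP arrays (sums of 4.57 and 10.9 without and 4.73 and 5.34 with DOX). The 6 endothelial markers, 5 of them above background on all HP arrays, summed to 30.4 and 49.0 without and 58.6 and 71.3 with DOX, and so were higher with DOX on both slides. The same held for the pluripotency markers, of which 2 of 3 were above background on all arrays (0.887 and 0.399 without and 1.88 and 0.675 with DOX), for the 3 megakaryocyte markers, all above background (2.78 and 3.12 without and 7.32 and 4.39 with DOX), and for the mast cell markers, of which 1 of 2 was above background on no array (0.642 and 0.442 without and 1.58 and 1.22 with DOX). The slides disagreed for the 3 erythroid markers (147 and 263 without and 231 and 208 with DOX). The part of these other cells in the results was not tested.

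Several of the genes with strongly negative differences were known interferon or PU.1 targets, and the upstream sequences of 5 of them are shown here, picked because motifs of these factors or of AP-1 were found in them. Each line gives the 250 bases in front of the transcription start (RefSeq, GRCm38.p6), 5′ to 3′ along the gene, in lower case with motif matches in capitals. The 5 motifs searched on both strands were the AP-1 site TGANTCA, the cyclic AMP response element TGACGTCA, the interferon response element (GAAA, any 2 bases, GAAA), the PU.1 site GAGGAAGT and the GATA site AGATAA. The windows lie at chr19:34640639-34640888 on the plus strand for Ifit1, chr4:156200819-156201068 on the minus strand for Isg15, chr5:92348890-92349139 on the minus strand for Cxcl10, chr9:88731851-88732100 on the minus strand for Bcl2a1d and chr9:114329885-114330134 on the plus strand for Bcl2a1c.
Ifit1: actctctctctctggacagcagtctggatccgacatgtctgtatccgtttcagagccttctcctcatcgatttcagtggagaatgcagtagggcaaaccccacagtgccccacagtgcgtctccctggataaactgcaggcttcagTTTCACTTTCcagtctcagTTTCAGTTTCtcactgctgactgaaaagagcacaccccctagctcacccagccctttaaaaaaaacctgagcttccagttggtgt
Isg15: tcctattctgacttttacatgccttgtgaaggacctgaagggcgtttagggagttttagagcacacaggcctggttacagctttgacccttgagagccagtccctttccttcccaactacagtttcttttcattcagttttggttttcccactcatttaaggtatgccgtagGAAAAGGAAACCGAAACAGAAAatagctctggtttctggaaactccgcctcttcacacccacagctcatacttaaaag
Cxcl10: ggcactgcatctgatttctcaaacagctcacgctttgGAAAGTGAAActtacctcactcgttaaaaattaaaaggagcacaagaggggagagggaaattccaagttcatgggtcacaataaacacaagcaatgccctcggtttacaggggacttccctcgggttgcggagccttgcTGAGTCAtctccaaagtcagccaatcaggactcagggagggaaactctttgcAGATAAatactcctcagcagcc
Bcl2a1d: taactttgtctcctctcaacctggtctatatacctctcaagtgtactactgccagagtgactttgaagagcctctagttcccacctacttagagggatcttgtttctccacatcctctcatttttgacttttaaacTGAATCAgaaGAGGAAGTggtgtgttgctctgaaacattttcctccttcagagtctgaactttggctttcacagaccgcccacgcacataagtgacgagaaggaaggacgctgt
Bcl2a1c: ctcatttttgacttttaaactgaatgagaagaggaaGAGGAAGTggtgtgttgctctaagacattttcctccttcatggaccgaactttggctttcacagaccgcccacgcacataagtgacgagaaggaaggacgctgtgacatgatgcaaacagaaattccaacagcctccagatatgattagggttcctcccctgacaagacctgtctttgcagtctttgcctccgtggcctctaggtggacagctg

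The Ifit1 window held interferon response elements starting at -104 and -85 relative to the transcription start, both read on the opposite strand. Isg15 held 3 overlapping copies, starting at -78, -72 and -66. Cxcl10 combined an interferon response element at -213 with an AP-1 site at -74 and a GATA site at -22. Bcl2a1d had an AP-1 site at -114 and a PU.1 site at -104. Its paralog Bcl2a1c shared a run of 58 bases with it and had a PU.1 site at -214 but no TGANTCA in this window. Of the other called genes with a window, Gbp2b held an interferon response element at -137 and an AP-1 site that began at 10, past the start, and Hpgd and Slc2a6 held none of the 5 motifs. Counted over windows of 300 bases that also include the first 50 bases after the start, 3.99% of all 27025 genes with a window held the interferon response element, and 12 of the 21 type I interferon genes with a window did. The PU.1 site was in 3.69% of all windows and the AP-1 site in 8.97%. A match describes the letters of a window and does not show that a factor binds there.

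With DOX, 9 genes fell and 1 rose past the threshold in HP cells. Among those that fell were the interferon-inducible genes Ifit1, Ifi204 and Gbp2b and the A1 genes Bcl2a1c and Bcl2a1d of the BCL2 family. The prostaglandin-degrading enzyme gene Hpgd and the sugar transporter gene Slc2a6 fell as well. Of 25121 genes tested, 0.0358% were called lower and 0.00398% higher. Of those that fell, 4 (Ifit1, Ifi204, Bcl2a1c and BC010546) passed the filter on dim probes only through the untreated arrays, and with detection required in both groups 0 genes were called. In bulk RNA, fewer cells of a type and less RNA per cell cannot be told apart.

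Ifit1, an interferon-induced protein that binds viral RNA, measured -0.79 and -0.67 without DOX and -4.50 and -5.40 with DOX, where it was nowhere above background. It fell at least 15.5-fold (adjusted p = 0.0499). Ifi204, a nuclear DNA-binding protein of the interferon-inducible HIN-200 family, went from -1.43 and -1.71 to -5.29 and -7.06, below background on both DOX arrays. It fell at least 8.66-fold (adjusted p = 0.0157). Gbp2b, a guanylate-binding GTPase that acts against intracellular pathogens, stayed above background on all 4 arrays, at -0.80 and -0.40 without and -3.91 and -4.26 with DOX, a log2 difference of -3.49 (SE 0.56, adjusted p = 0.0267). For all 3 genes, the DOX arrays both lay under the untreated arrays.

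The A1 genes belong to the BCL2 family, and Bcl2a1d encodes a short-lived protein that protects leukocytes from apoptosis. Bcl2a1d measured 0.63 and 1.83 without and -2.17 and -2.74 with DOX, a log2 difference of -3.68 (SE 0.63, adjusted p = 0.0429). Bcl2a1c measured -1.90 and -2.20 without DOX, was nowhere above background with DOX (-6.16 and -6.91), and fell at least 6.22-fold (adjusted p = 0.0157). The A1 copies are close paralogs and share upstream sequence, and their probes may read more than 1 copy.

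Hpgd, the dehydrogenase that inactivates prostaglandins, measured 0.90 and 1.06 without and -2.63 and -3.12 with DOX, a log2 difference of -3.86 (SE 0.68, adjusted p = 0.0499). Slc2a6, a member of the facilitative sugar transporters, measured 2.54 and 2.99 without and -0.05 and -0.54 with DOX, a log2 difference of -3.06 (SE 0.50, adjusted p = 0.0267). Other detected probes gave log2 differences down to -4.30 for Hpgd, -2.79 for Slc2a6 and -3.18 for Gbp2b, all on the same side. The remaining called transcripts carry accessions that the RefSeq table did not pair with a symbol. NM_020008 measured 2.15 and 2.79 without and -1.29 and -1.67 with DOX (log2 difference -3.95, SE 0.59, adjusted p = 0.0186). BC010546 measured -2.93 and -3.04 without DOX and was nowhere above background with DOX (at least 3.25-fold, adjusted p = 0.0267). AK132929, the 1 transcript that rose, was nowhere above background without DOX (-6.72 and -7.55) and measured -2.52 and -1.54 with DOX, at least 8.84-fold (adjusted p = 0.0267). All bounds hold for this background treatment only. With normexp, the log2 difference was -1.78 for Ifit1, -1.23 for Ifi204, -0.82 for Bcl2a1c, -0.56 for BC010546 and 1.04 for AK132929, and on the authors' values it was -2.78, -2.25, -1.82, -1.58 and 1.34 in the same order.

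**Figure D1:**
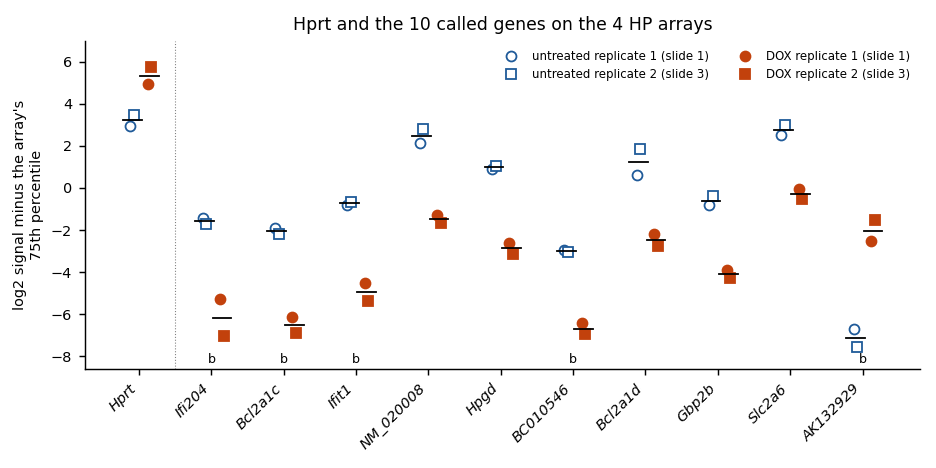
Log2 signal of the 10 called genes and transcripts, relative to the 75th percentile of the array, on the 2 untreated (open) and 2 DOX (filled) arrays of HP cells, with Hprt on the left. Circles are replicate 1, squares replicate 2 and short lines group means, and b marks genes whose lower group was above background on no array. The DOX arrays lie below the untreated arrays for 9 genes and above them for AK132929 and Hprt.

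With the slide as a block, all 10 kept their calls (adjusted p from 0.00405 for Bcl2a1c to 0.0450 for BC010546) among 22 lower and 1 higher. With the replicate number as a block only Bcl2a1c, Ifi204, NM_020008 and Hpgd kept theirs, and the adjusted p of the other 6 was between 0.052 (Gbp2b, Slc2a6 and BC010546) and 0.0635 (Ifit1). Calls also depended on the filter, as given before, on the variance model (4 lower with a mean-variance trend), on single arrays and on the arrays in the fit. Without untreated replicate 1 there were 5 calls and none of the 10 was among them, without untreated replicate 2 or DOX replicate 2 there were 0, without DOX replicate 1 there were 4 lower and 7 higher, and a fit to the 4 HP arrays alone gave 0. The normexp background correction gave 35 lower. These included NM_020008, Slc2a6, Bcl2a1d and Hpgd but neither the called genes that lay at background nor Gbp2b, whose difference was then -1.45 (adjusted p = 0.6945). Genes at an unadjusted p under 0.05 with at least a 2-fold difference are called nominally lower or nominally higher here. There were 610 nominally lower (2.43%) and 259 nominally higher genes (1.03%), so that 70.2% lay on the lower side. This share was between 42.3% and 86.5% over the alternatives: it was highest when each array was centred on its median, 58.9% with the slide as a block and 56.5% without DOX replicate 1, and it turned without DOX replicate 2, with 418 lower and 571 higher genes. Chance would give 1256 genes at an unadjusted p under 0.05, and 880 were found.

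The median difference over all genes tested was 0.25, so that the bulk of genes sat slightly above 0 on this scale, at 0.10 with quantile normalization and at -0.05 with median scaling. The DOX arrays both lay under the untreated arrays for 3129 genes (12.5%) and above them for 6440 (25.6%). Within the slides the median was 0.31 for replicate 1 and 0.19 for replicate 2, and the differences of 25110 genes correlated across genes with a Spearman rho of 0.471. Genes are not independent replicates, and arrays of a slide share its scan. Both differences were negative for 5169 genes and positive for 12880.

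**Figure D2:**
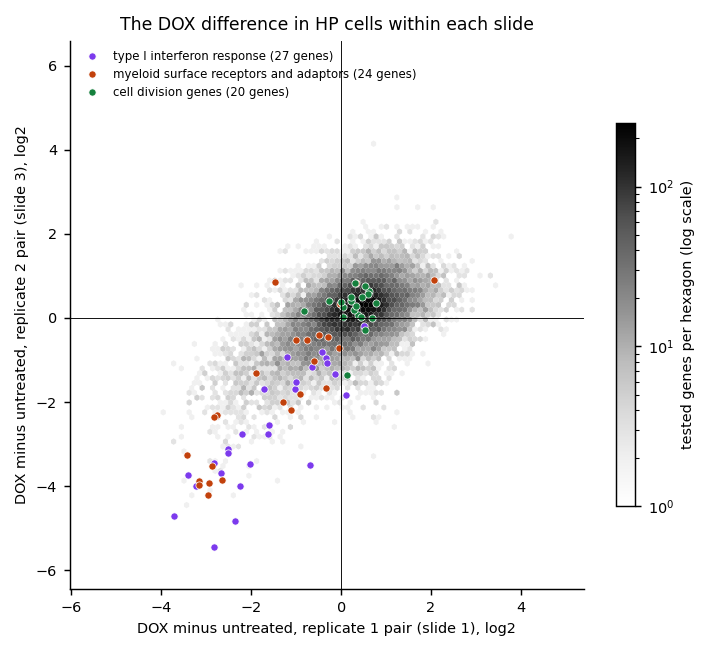
Within-slide log2 difference (DOX minus untreated) of each tested gene on the slide of replicate 1 (horizontal) against the slide of replicate 2 (vertical), with darker cells for more genes, and with the type I interferon, myeloid surface and cell division lists as points. Most interferon genes lie at the lower left, where both slides gave a negative difference, with list medians of -1.62 and -2.75 on the slides, and cell division genes lie around 0.

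Known genes were grouped in 34 lists by function, chosen with earlier results of these arrays known, and each list is described by its counts and its median difference, and for most lists the range of that median over the alternatives is given in brackets or after it. Beside each list stand all genes tested, with a median of 0.25, of which 2.43% were nominally lower, 1.03% nominally higher, 12.5% lower without overlap and 25.6% higher without overlap. Of the list genes matched to a symbol on the array, only Ifit1, Ifi204, Bcl2a1c and Bcl2a1d were called, and all other members are given by their values. The called transcripts without a symbol were not matched to the lists. Up to 5 tested members of a list passed the filter on dim probes only because the untreated arrays were above background, which favours a negative difference in these.

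The type I interferon list had 30 genes, of which 28 were on the array and 27 were tested, 3 of them only because the untreated arrays were above background. The differences of 25 were negative, with a median of -2.10. The DOX arrays both lay under the untreated arrays for 23 of 27, beside 12.5% of all genes, and above them for 0. Of the list, 15 were nominally lower and 0 nominally higher, beside 2.43% and 1.03% of all genes. The list median lay between -2.42 and -1.19 over all alternatives, and 4 members were called with the slide as a block but 0 with the replicate number as a block.

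Isg15, a ubiquitin-like modifier, measured 2.95 and 4.94 without and 0.70 and 0.95 with DOX, a log2 difference of -3.12 (SE 0.70, adjusted p = 0.173, 0.0214 with the slide and 0.254 with the replicate number as a block). Rtp4, a chaperone of receptors that interferon induces strongly, measured 0.54 and 2.02 without and -2.29 and -3.42 with DOX (log2 difference -4.13, SE 0.79, adjusted p = 0.0796). Oas1a, a sensor of double-stranded RNA, measured 0.91 and 1.88 without and -2.31 and -2.12 with DOX (log2 difference -3.61, SE 0.74, adjusted p = 0.127). On each slide the DOX array was the lower for all 3 genes, and the untreated replicate 2 array was the highest of the 4.

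Further antiviral effectors had differences of similar size without passing the adjusted threshold. Oas2 differed by -3.18 and Oasl2 by -3.57, Ifit3 by -3.14, the proapoptotic Xaf1 by -2.87 and Usp18, the protease that removes ISG15 from proteins, by -2.74. The cytoplasmic RNA sensors Ddx58 (RIG-I) and Ifih1 (MDA5) differed by -2.47 and -2.08. Of these, Ddx58 and Oas2 passed with the slide as a block (adjusted p = 0.0243 and 0.0411) but not with the replicate number (0.181 and 0.573). The chemokine gene Cxcl10 measured -0.62 and 1.19 without DOX and -6.14 and -2.86 with DOX, with 1 of 2 DOX arrays above background. Its log2 difference of -4.79 (SE 1.23) had an adjusted p of 0.352, 0.0374 with the slide and 0.254 with the replicate number as a block.

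Stat2, Irf9 and Irf7, which carry the interferon signal, had smaller differences than the antiviral genes named before. Stat2 measured 2.25 and 2.72 without and 1.92 and 1.77 with DOX, a log2 difference of -0.64 (SE 0.45). Irf9 measured 1.73 and 1.98 without and 1.09 and 0.81 with DOX (-0.91, SE 0.49). Irf7 differed by -0.73 (SE 1.04). None of these 3 had an unadjusted p under 0.05.

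Genes that interferon-gamma also induces formed further lists. Of 11 guanylate-binding protein and related GTPase genes tested, 9 had negative differences, 5 were nominally lower and 0 nominally higher, and the median was -1.22 (-1.61 to -0.23 over the alternatives, the smallest difference with normexp). Of the tested genes, 3 passed the filter only through the untreated arrays, and the called gene Gbp2b was not on this list. Gbp3 measured -1.03 and 0.31 without and -3.65 and -3.13 with DOX (log2 difference -3.03, adjusted p = 0.173), and Gbp2 measured -0.09 and 0.22 without and -2.10 and -1.86 with DOX (-2.04, adjusted p = 0.309). Gbp7 differed by -2.35 and Igtp by -2.01. Gbp7 also differed between the slides, from 0.27 to -1.79 without and from -2.20 to -4.02 with DOX.

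Of 10 HIN-200 genes 6 were on the array and 4 were tested, 2 of them (Ifi204 and Mndal) only through the untreated arrays. These 4 had DOX arrays below both untreated arrays, beside 12.5% of all genes, with a median difference of -2.60, which moved to -0.90 when all 6 were kept, dim probes included, and to -0.88 with normexp. Ifi202b, which lacks the pyrin domain of its relatives, measured 0.47 and 0.91 without and -3.01 and -3.49 with DOX (log2 difference -3.94, SE 0.73, adjusted p = 0.0716). Aim2, the DNA sensor of the inflammasome, measured 0.61 and 0.40 without and 0.33 and -0.41 with DOX (-0.54, SE 0.68). GBP and HIN-200 genes are families of close paralogs, and cross-hybridization between members was not tested.

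MHC class I presentation had 13 genes, all tested, with 11 negative differences, 6 nominally lower (2.43% of all genes were) and 0 nominally higher, and a median of -1.06 (-1.53 to -0.99). The class I heavy chain gene H2-D1 measured 2.26 and 2.01 without and 0.28 and -0.28 with DOX (log2 difference -2.13, adjusted p = 0.456), H2-K1 differed by -1.45 and H2-T23 by -1.60. The immunoproteasome subunits Psmb8 and Psmb9 differed by -3.40 and -2.29. Tap1, a subunit of the peptide transporter, measured -1.49 and -2.08 without DOX and was nowhere above background with DOX, at least 7.45-fold lower (adjusted p = 0.521). B2m, the light chain, measured 4.67 and 5.99 without and 4.38 and 4.55 with DOX (-0.86, SE 0.72), with both DOX arrays just under the lower untreated array.

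**Figure D3:**
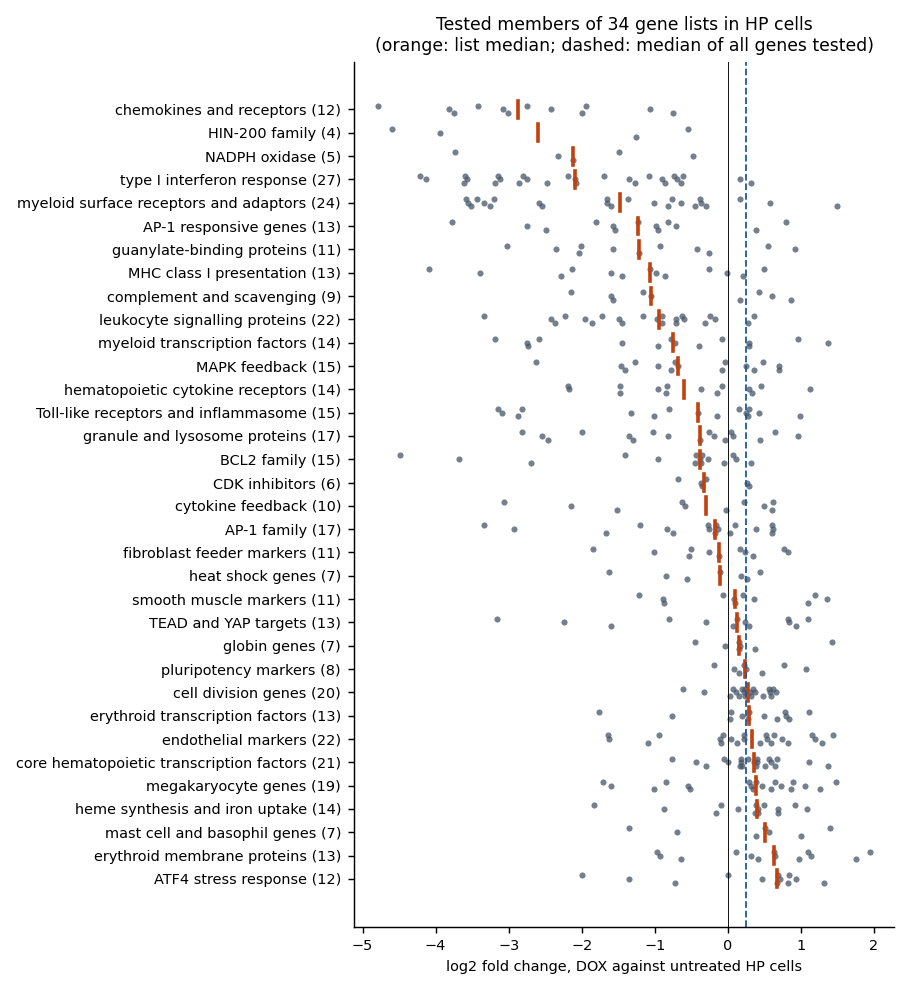
Log2 difference (DOX minus untreated) in HP cells of each tested member of 34 gene lists; each point is a gene, the orange mark is the list median and the dashed line the median of all genes tested (0.25), and fitted differences of genes at background are included. The chemokine, HIN-200, NADPH oxidase and type I interferon lists have the lowest medians among tested genes (-2.88, -2.60, -2.12 and -2.10, but -1.94, -0.90, -1.80 and -2.09 when dim probes were kept). The medians of the core hematopoietic transcription factor, erythroid transcription factor and cell division lists lie near the dashed line.

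Myeloid transcription factors differed among themselves. Of 14 tested, 10 had negative differences, 5 were nominally lower (Spi1, Cebpa, Cebpd, Irf5 and Irf8) and 0 nominally higher, and the median was -0.75 (-1.05 to -0.54). Spi1 measured 1.74 and 0.86 without and -1.84 and -1.94 with DOX, a log2 difference of -3.19 (SE 0.95, adjusted p = 0.548). Cebpa measured 0.17 and -0.76 without and -3.09 and -2.67 with DOX (-2.58, SE 0.65, adjusted p = 0.309). Irf8 measured 1.44 and 0.80 without and -0.96 and -2.28 with DOX (-2.74, SE 0.70, adjusted p = 0.352). In all 3, the groups did not overlap and untreated replicate 1 was the highest of the 4 arrays.

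Irf5, a factor of inflammatory macrophages, differed by -2.75 and Cebpd by -1.45, whereas Cebpb, which measured 4.73 and 5.61 without and 4.21 and 4.68 with DOX, differed by -0.72 (SE 0.71). Gfi1, a repressor that steers progenitors towards granulocytes, lay on the other side at 0.36 and 0.37 without and 1.85 and 1.61 with DOX (1.37, SE 1.09, unadjusted p = 0.226). Spi1 and Irf8 passed the threshold with normexp and 4 of the 14 factors on the authors' processed values, but 0 did with either the replicate block or the HP arrays alone.

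Surface receptors and adaptors of myeloid cells had mostly negative differences. Of 24 tested, 4 only through the untreated arrays, 21 had negative differences with a median of -1.48 (-1.78 to -0.77, the smallest difference with normexp). Of them 11 were nominally lower (2.43% of all genes) and 0 nominally higher, and 18 did not overlap on the lower side (12.5% of all genes) and 2 on the higher side (25.6%). The inhibitory receptor genes Pirb and Lilrb4a were among the clearest. Pirb measured 2.03 and 2.26 without and -1.14 and -1.71 with DOX (log2 difference -3.56, SE 0.78, adjusted p = 0.162), and Lilrb4a measured 4.42 and 4.69 without and 1.78 and 0.82 with DOX (-3.25, SE 0.61, adjusted p = 0.0716, 0.0455 with the slide and 0.131 with the replicate number as a block). Both belong to clusters of close paralogs.

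Cd14, a co-receptor for lipopolysaccharide, measured 1.44 and 1.72 without and -1.49 and -2.21 with DOX (log2 difference -3.43, SE 0.81, adjusted p = 0.233). Ptprc, the gene of the pan-leukocyte antigen CD45, measured 0.49 and -1.04 without and -2.40 and -4.58 with DOX (-3.21, SE 0.76, adjusted p = 0.243). For the Fc receptor genes, Fcgr3 differed by -3.34, and Fcgr2b was at least 5.24-fold lower, being nowhere above background with DOX, as was the integrin gene Itgax (at least 6.25-fold). Tyrobp, the adaptor DAP12, differed by -1.65. Itgam, which encodes CD11b, measured 3.69 and 3.20 without and 5.77 and 4.10 with DOX, a difference of 1.49 (SE 0.85, unadjusted p = 0.0982) on the brightest probe, and its detected probes ranged from -0.04 to 1.49.

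The 4 macrophage markers (Csf1r, Adgre1, Itgam and Cd14) were above background on all HP arrays, and their sum was 23.9 and 26.4 without and 58.7 and 21.5 with DOX. Itgam made up most of the sum on both DOX arrays. Without it, the other 3 markers summed to 10.9 and 17.2 without and 4.14 and 4.29 with DOX, lower with DOX on both slides. The 3 granulocyte markers (Mpo, Elane and Prtn3) summed to 77.4 and 94.6 without and 86.4 and 90.5 with DOX.

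Among the receptors for blood cytokines, 14 were tested, 3 were nominally lower and 1 nominally higher (2.43% and 1.03% of all genes), and the median was -0.60 (-0.90 to -0.24, the smallest difference without DOX replicate 1). Csf2rb, the shared beta chain of the receptors for IL-3, IL-5 and GM-CSF, measured 5.41 and 5.14 without and 3.50 and 2.67 with DOX (log2 difference -2.19, SE 0.60, adjusted p = 0.428), and its paralog Csf2rb2 differed by -2.18. Il6ra, the receptor chain for IL-6, which was present in the blast culture, measured 3.81 and 4.04 without and 2.88 and 2.02 with DOX (-1.47, SE 0.51). Csf1r, the M-CSF receptor gene, measured 2.99 and 3.77 without and 1.84 and 1.95 with DOX (-1.48, SE 0.93), with probes that ranged from -1.95 to 0.08. Csf3r differed by 0.45 (SE 0.51). Epor, the erythropoietin receptor gene, lay above with DOX, at 2.70 and 3.08 without and 3.83 and 4.2 with DOX (1.13, SE 0.48, unadjusted p = 0.0299).

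The NADPH oxidase, with which phagocytes make superoxide, was covered as well. All 5 of its genes tested had negative differences, 4 without overlap (12.5% of all genes lay lower so), with a median of -2.12 (-2.43 to -1.44). Ncf1, the organizing subunit p47phox, measured 2.13 and 1.98 without and -1.14 and -2.23 with DOX (log2 difference -3.74, SE 0.75, adjusted p = 0.111, 0.0262 with the slide and 0.134 with the replicate number as a block), and Ncf4 measured 3.29 and 3.6 without and 1.53 and 0.72 with DOX (-2.33, adjusted p = 0.406). Cyba, another subunit gene of the oxidase, differed by -0.48 (SE 0.80) and by 0.03 without untreated replicate 2.

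Of 22 leukocyte signalling genes, all tested, 20 had negative differences, 7 were nominally lower and 0 nominally higher, and the median was -0.94 (-1.24 to -0.65). Pstpip1, a cytoskeletal adaptor that binds pyrin, measured 0.78 and 0.52 without and -3.13 and -3.38 with DOX (log2 difference -3.90, SE 0.73, adjusted p = 0.0716). Btk differed by -2.42, and the actin regulator Coro1a, at 5.23 and 5.77 without and 4.07 and 3.22 with DOX, by -1.86. In each of these the DOX arrays lay below both untreated arrays.

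The chemokine list had a median of -2.88 over 12 tested genes, 2 of which passed the filter only through the untreated arrays. All 12 were negative, 11 lay lower without overlap (12.5% of all genes did) and 10 were nominally lower (2.43% of all genes). Without the filter the median over 19 genes was -1.94, and with normexp -1.72. The macrophage inflammatory proteins Ccl3 and Ccl4 differed by -3.81 and -2.75, and Ccl6 and Ccl9, which myeloid cells secrete without stimulation, by -3.08 and -3.01. Ccl9 measured 5.38 and 5.37 without and 2.78 and 1.95 with DOX. The receptors of monocytes were lower as well, with Ccr2 at -0.66 and -0.17 without and -3.53 and -4.13 with DOX (-3.42) and Cx3cr1 at 1.80 and 2.47 without and -1.34 and -1.88 with DOX (-3.75). Under the slide block 1 chemokine gene was called, under the replicate block 0, and on the authors' values 5 were.

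Granule and lysosome genes were mixed, with 12 of 17 negative, 4 nominally lower and 0 nominally higher, and a median of -0.38 that lay between -0.96 and 0.07 over the alternatives. Prtn3, the granule proteinase 3 gene, measured -0.18 and -1.65 without and -3.0 and -3.75 with DOX (log2 difference -2.46, SE 0.74), and the lysozyme gene Lyz2 differed by -2.55. Neighbouring granule genes did not share this: Elane measured -0.12 and 0.07 without and 1.14 and 0.72 with DOX (0.95, SE 0.78), and Mpo measured 6.24 and 6.54 without and 6.39 and 6.47 with DOX, a difference of 0.04 (SE 0.75) that turned to -0.22 with quantile normalization, -0.26 with median scaling and -0.25 on the authors' values. Among Toll-like receptor and inflammasome genes, 4 of 15 were nominally lower and 0 nominally higher, but all 4 were among 5 genes tested only through the untreated arrays, and with detection required in both groups 0 of 10 were nominally lower and the median was 0.20. Il1b, Casp1 and Tlr4 were nowhere above background with DOX, at least 7.50-fold, 4.22-fold and 6.44-fold lower.

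**Figure D4:**
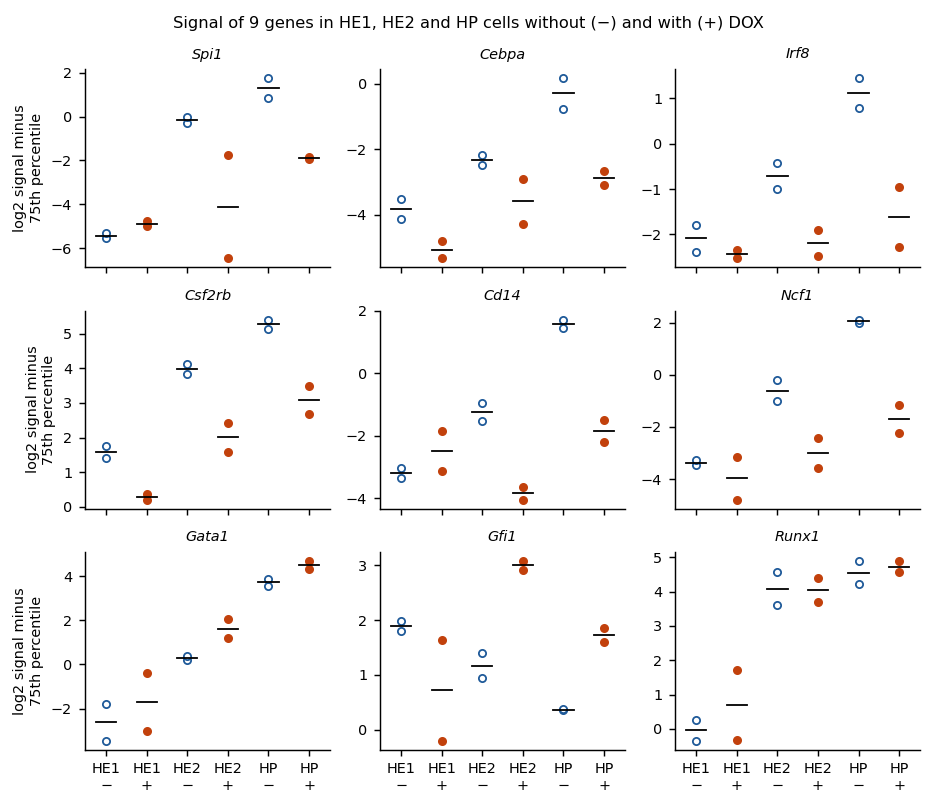
Log2 signal of 9 genes, relative to the 75th percentile of the array, in HE1, HE2 and HP cells without (open) and with (filled) DOX; each point is an array and short lines are group means. Spi1, Cebpa, Irf8, Csf2rb, Cd14 and Ncf1 are highest in untreated HP cells and lower on both HP DOX arrays, whereas Gata1 and Gfi1 lie higher on the HP DOX arrays and Runx1 overlaps between the groups.

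Levels were also set beside those of untreated HE2 cells. Over 25101 genes, the untreated HP mean was above the untreated HE2 mean for 55.3%, and the HP mean with DOX was at or below the untreated HE2 mean for 36.4%. Spi1 was nowhere above background in untreated HE1 cells, lay between -0.31 and -0.01 in untreated HE2 cells and between 0.86 and 1.74 in untreated HP cells, and lay between -1.94 and -1.84 in HP cells with DOX. Csf2rb measured 3.84 to 4.13 in untreated HE2 cells, above the 2.67 to 3.50 of HP cells with DOX. Of 27 type I interferon genes, the untreated HP mean was above the untreated HE2 mean for 24, and the HP mean with DOX was at or below the untreated HE2 mean for 21. The same counts were 22 and 13 of 24 myeloid surface genes, 20 and 9 of 22 leukocyte signalling genes, and 11 and 7 of 12 chemokine genes. They were 6 and 10 of 11 guanylate-binding protein genes, whose median level was higher in untreated HE2 (-1.30) than in untreated HP cells (-1.66), and 10 and 8 of 17 granule genes. For 20 cell division genes they were 16 and 1, and for 13 erythroid transcription factors 11 and 1. These are counts of group means without a test.

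AP-1 family genes and genes that respond to AP-1 formed separate lists. Of 17 AP-1 family genes, 11 had negative differences and 3 were nominally lower and 0 nominally higher, with a median of -0.17 that lay between -0.66 and 0.13 over the alternatives. Atf3 measured 1.23 and 0.95 without and -2.48 and -2.01 with DOX (log2 difference -3.33, SE 0.71, adjusted p = 0.150), and Batf3 measured -0.36 and 0.60 without and -2.83 and -2.77 with DOX (-2.92, SE 0.63, adjusted p = 0.154). Fosl2 differed by -1.20 (its detected probes ranged up to 0.32) and Junb by -1.67 (SE 0.92).

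Jun, Fosb, Fos and Jund had smaller differences, of either sign. Jun measured 6.14 and 6.28 without and 6.69 and 6.98 with DOX (0.62, SE 0.57), Fosb differed by 0.60 (SE 0.71), and the groups overlapped for Fos, at 3.31 and 3.89 without and 2.69 and 4.2 with DOX. The difference of Fos was -0.16 (SE 0.83), 0.13 without untreated replicate 2 and 0.60 without DOX replicate 1, and that of Jund was -0.27 (SE 0.69) and 0.12 without DOX replicate 1.

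Of 13 genes known to respond to AP-1 in other cells, 3 were tested only through the untreated arrays, 11 had negative differences, 7 were nominally lower (2.43% of all genes) and 0 nominally higher. The median was -1.23 and ran from -2.02 when untreated replicate 1 was left out to -0.90 when DOX replicate 1 was. Tnfrsf12a, the receptor for the cytokine TWEAK, measured -0.30 and 0.89 without and -2.0 and -2.40 with DOX (log2 difference -2.49, SE 0.55, adjusted p = 0.162). Plaur, the urokinase receptor gene, measured 2.65 and 3.6 without and 1.10 and 1.53 with DOX (-1.80, SE 0.61), and the hyaluronan receptor gene Cd44 measured 2.95 and 2.78 without and 1.66 and 1.62 with DOX (-1.23, SE 0.41). Spp1, which encodes osteopontin, differed by -3.77, with 1 of 2 DOX arrays above background.

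The remaining members of the BCL2 family had smaller differences than the A1 genes. Of 15 family genes tested, 12 were negative with a median of -0.38 (-0.76 without untreated replicate 1 and -0.14 without untreated replicate 2), and 4 were nominally lower and 0 nominally higher, the A1 genes included. The BH3-only genes Pmaip1 (NOXA) and Bmf differed by -2.70 and -1.41. Bcl2 differed by -0.45 (SE 0.56), and Mcl1, at 5.16 and 4.95 without and 4.90 and 4.47 with DOX, by -0.36 (SE 0.45). The cytokine-induced kinase genes Pim1 and Pim2 differed by -2.15 and -3.06. Lpl, the lipoprotein lipase of macrophages and fat, measured 1.62 and 2.09 without and -0.09 and -0.50 with DOX (-2.15, SE 0.54, adjusted p = 0.309).

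Identity factors of blood stem and progenitor cells, most erythroid lists and cell division genes had medians near or somewhat above that of all genes. Among 21 core hematopoietic transcription factors, 0 genes were nominally lower or higher, and the median was 0.36 (0.05 to 0.47). Runx1, which the transition to blood requires, measured 4.21 and 4.91 without and 4.57 and 4.90 with DOX, and its difference of 0.17 (SE 0.68) turned to -0.13 with median scaling, -0.03 on the authors' values and -0.20 in the mean of its probes. Tal1 differed by 1.10 (SE 0.97). Gata1 measured 3.57 and 3.87 without and 4.33 and 4.70 with DOX (0.80, SE 0.85, unadjusted p = 0.359). At this spread, differences of over 2-fold in single genes, such as that of Tal1, did not pass even the unadjusted threshold.

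The erythroid transcription factors had a median of 0.29 over 13 genes (-0.01 to 0.49), the heme genes 0.40 over 14 (-0.05 to 0.59), the globin genes 0.15 over 7 (-0.15 to 0.55) and the megakaryocyte genes 0.39 over 19 (0.08 to 0.53), each with 0 genes nominally lower or higher. The globin median was 0.77 on the slide of replicate 1 and -0.43 on that of replicate 2, so that the slides disagreed in sign. The 13 erythroid membrane genes had a higher median of 0.64 (0.33 to 0.67), with 3 negative differences and 6 genes higher without overlap (25.6% of all genes were). Of them 1 was nominally higher, the Rhesus antigen gene Rhd (1.76, SE 0.75, with 1 of 2 untreated arrays above background), and Trim10, an erythroid ubiquitin ligase gene, differed by 1.94 (SE 0.93). Treml1, a platelet receptor gene, measured 0.28 and 0.22 without and 1.91 and 1.54 with DOX (1.48, SE 0.76). Of 20 cell division genes, 0 were nominally lower or higher and the median was 0.27, and this median lay between -0.23 and 0.76 over the alternatives.

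Endothelial, SM, feeder and pluripotency markers had medians of 0.33, 0.10, -0.12 and 0.23, again with 0 genes nominally lower or higher. The ATF4 stress genes had a median of 0.68 (0.20 to 0.88), with 1 of 12 tested nominally lower and 0 nominally higher. Single arrays turned the sign of several: leaving out each array in turn, the SM median ran from -0.38 without untreated replicate 1 to 1.12 without untreated replicate 2, the endothelial median from -0.08 without DOX replicate 2 to 0.70 without untreated replicate 2, and the feeder median from -0.43 without untreated replicate 1 to 0.23 without DOX replicate 1. The CDK inhibitor, mast cell, heat shock, MAPK feedback and cytokine feedback lists held at most 2 nominally lower or higher genes. Among 9 complement and scavenging genes the median was -1.06, but 0.05 with normexp, and 2 were nominally lower, Lpl and Axl. Of 13 TEAD and YAP target genes 2 were nominally lower, Ankrd1 and again Axl (-1.60). Ankrd1 measured -1.16 and 3.18 without and -3.86 and -0.44 with DOX, so that the groups overlapped and each slide gave a negative difference.

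Outside the lists, the lowest differences with an unadjusted p under 0.01 and no overlap included 3 further genes. Cfb, the complement factor B gene, measured -1.27 and -1.41 without DOX and was nowhere above background with DOX, at least 10.2-fold lower (adjusted p = 0.562). Adgrl4, an adhesion receptor gene of endothelial cells, was likewise at least 4.94-fold lower (adjusted p = 0.456), and 5730416F02Rik differed by -3.91 (SE 0.95, adjusted p = 0.289). On the other side, most of the genes with the highest differences were nowhere above background without DOX. The secreted protein gene Cytl1 measured -6.00 and -6.22 without and -1.81 and -0.92 with DOX, at least 14-fold higher (adjusted p = 0.271). A1bg was at least 4.19-fold higher (adjusted p = 0.110), Thsd4 at least 5.07-fold, Vmn2r52 at least 3.42-fold, the ribonuclease gene Slfn14 at least 3.31-fold, the Notch regulator gene Dtx1 at least 2.27-fold and Gm11541 at least 2.17-fold. Measured on both sides, Sync differed by 2.60, Acot3 by 2.36, Spon2 by 2.10 and Frmpd1 by 2.07, none with an adjusted p under 0.05.

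**Figure D5:**
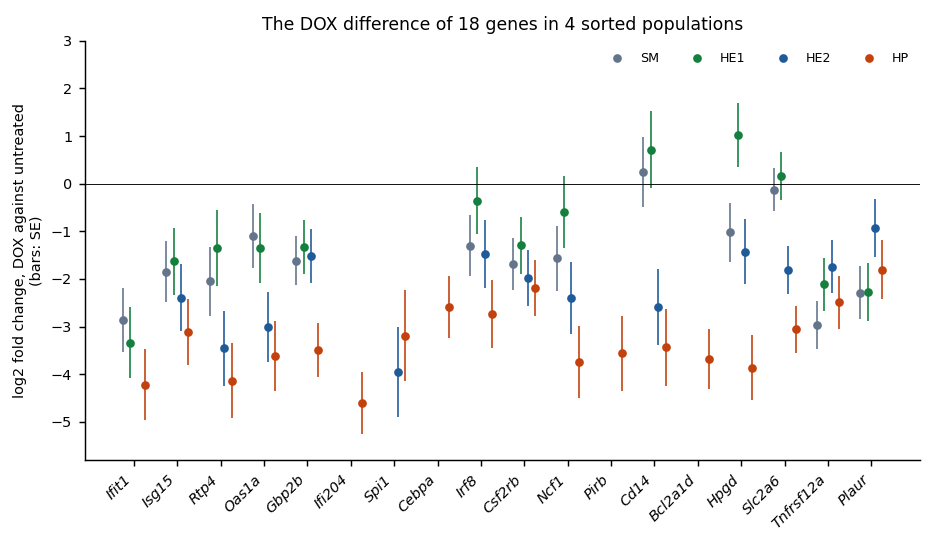
Log2 difference (DOX against untreated) of 18 genes in sorted SM, HE1, HE2 and HP cells, shown where the gene was tested; bars are the SE of the fit, with n = 2 per group apart from untreated SM cells with 3. The interferon genes are negative in each population shown, whereas Hpgd, Slc2a6 and Cd14 lie near or above 0 in HE1 cells and are negative in HP cells, and these interactions did not pass the adjusted threshold.

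Whether HP cells responded otherwise than hemogenic endothelium or SM cells was tested with interaction contrasts, which compare the DOX difference of HP cells with that of another population. With limma, 0 genes were called against HE2, HE1 or SM cells (smallest adjusted p 0.921, 0.9998 and 0.337). At an unadjusted p under 0.05 there were 1010 genes (3.87%) against HE2, 364 (1.4%) against HE1 and 539 (2.04%) against SM cells. Hpgd differed by 1.02 in HE1 and by -3.86 in HP cells, an interaction of -4.88 (SE 0.96, unadjusted p = 6.93e-05, adjusted p = 0.9998). Lpl differed by 1.23 in HE1 and 0.80 in HE2 cells against -2.15 in HP cells (interaction with HE2 -2.95, SE 0.76, unadjusted p = 0.00102). Slc2a6 differed by 0.16 in HE1 and -0.12 in SM cells, and -1.82 in HE2 cells, against -3.06 in HP cells.

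The nominally lower genes of HP cells were also read in the other sorted populations. Those arrays hold other samples, but the cells were sorted from day 2 cultures as well, and all HE1 and HE2 arrays and 3 of 5 SM arrays lay on the slides of the HP arrays. Of the 610 nominally lower genes of HP cells, 454 were tested in HE2 cells and 385 of them (84.8%) had negative differences there, beside 43.8% of all genes tested in HE2 cells. In HE1 cells it was 334 of 429 (77.9%) and in SM cells 395 of 471 (83.9%). Genes above background only on the untreated arrays of a population are among these, which favours a negative difference in them. How many there were was not counted. The 259 nominally higher genes had negative differences in 32.7% of those tested in HE2, 34.8% in HE1 and 52.7% in SM cells, beside 43.8% of all genes in each. List medians did not all point the same way in HE2 cells, where they were 0.87 for myeloid transcription factors, 0.85 for HIN-200 and 0.36 for MHC class I genes, against -0.87 for type I interferon and -1.64 for chemokine genes and 0.17 over all genes. Ifit1 differed in the fit by -2.74 in HE2, -3.34 in HE1 and -2.86 in SM cells, and was nowhere above background with DOX in HE1 and HE2 cells either. Isg15 differed by -2.39, -1.63 and -1.85, and Gbp2b by -1.52, -1.33 and -1.62. Spi1 differed by -3.95 in HE2 cells, where 1 of 2 DOX arrays was above background.

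The sites marked in the upstream sequences were also counted over all genes. The interferon response element was in 32 of the 401 windows of the 610 lower genes (7.98%), beside 3.64% of 11717 windows of tested genes, and in 3 of 116 windows of the higher genes (2.59%). The PU.1 site was in 8.23% of the lower and 3.59% of the tested genes, with 1 match among the higher genes (0.862%). The AP-1 site was in 9.73% of the lower, 11.2% of the higher and 6.7% of the tested genes, and the cyclic AMP response element in 1.25%, 3.45% and 3.2%. All 6 guanylate-binding protein genes with a window held the interferon response element, as did 3 of 11 MHC class I genes. These shares are descriptions without a test, and genes without a RefSeq window were not counted.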

How the data were processed

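The authors deposited, for each array, the Agilent Feature Extraction signal of every spot as an intensity, background-subtracted and detrended within the array but not scaled between arrays, with median spot and background intensities, and log2 values that the authors had normalized between arrays. Per the labels the Feature Extraction version was 10.7.1.1, while the file headers give 10.7.3.1. From 62976 spots, 55681 probes were kept, of which 26576 had 1 RefSeq symbol (GRCm38.p6). Outlier spots were removed and spots of a probe averaged. For each of 37208 genes or transcripts, the probe with the highest mean was used. Each array's log2 signals were scaled by subtracting their 75th percentile.

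A limma model (version 3.58.1, R 4.3.3, lmFit and eBayes) with 1 mean for each of the 13 groups was fitted to the 27 arrays (14 residual and 4.49 prior degrees of freedom), and p-values were adjusted by Benjamini-Hochberg over all genes tested. Interactions were contrasts of this fit. The study's methods name limma, and the further details to which they refer were not used here. Further software included data.table (version 1.17.8), Python 3.11.15, pandas 2.3.3, numpy 2.4.6 and matplotlib 3.10.9.

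The comparison, the 34 lists and the genes named were chosen with earlier results of these data known. Named were every called gene, the 12 largest falls and 12 largest rises with an unadjusted p under 0.01 and no overlap, and in each list up to 8 members by p with an unadjusted p under 0.05 and a 2-fold difference, beside its key members, not all of which are printed; a few are not reported here. The model was tested on simulated data for the HP comparison: of 200 changed genes among 24860, 20.9% at a log2 change of 2, 58.2% at 3 and 65.2% at 4 were recovered, and 6 of 102 calls were false. The simulated noise was independent between arrays, without the deviations that arrays of a slide shared, and these rates hold for such noise only. Alternatives were other background corrections, scalings, filters, probe rules, blocks, variance models, arrays in the fit, and leaving out each array. A bound on a fold compares the brighter group's mean with the dimmest signal well above background, or the gene's own where higher, on the arrays of the dimmer group.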

Additional observations from a re-analysis of the deposited data

How the results depend on the processing

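The called counts depended on the processing. Beside 9 lower and 1 higher, there were 16 lower at an adjusted p under 0.1, and 35 and 0 with normexp, 28 and 3 with quantile normalization, 29 and 2 with median scaling, 128 and 8 on the authors' values, 6 and 1 without a filter on dim probes, 0 and 0 with detection required in both groups, 10 and 1 for the mean of all probes, 22 and 1 with the slide as a fixed block, 52 and 3 with it as a random block, 0 and 0 with the HP arrays alone, with or without a replicate block, 1 and 0 with the sorted populations alone, 4 and 0 with a mean-variance trend and 50 and 4 with array weights. With each array left out in turn there were 0 to 5 lower and 0 to 7 higher, a lone array being assumed to vary like the other groups. Chosen after seeing the data, a slide block gave 140 and 7 with normexp and 190 and 17 on the authors' values. Of the 10 called genes, normexp kept 4, quantile normalization 6, no filter 7, the mean of probes 9 and the trend 4. Median scaling, the authors' values, both slide blocks and array weights kept all 10.

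Replicate numbers were checked as pairs. Deviations from group means correlated between same-numbered arrays at 0.269 to 0.635 in the 5 populations where these arrays shared a slide (0.635 in HP cells), and at -0.11 in FLK1+ 5 h cultures, where they did not. No label ties a number to a shared culture or day, so the numbers were not taken as pairs. The fit reported has no block, so its SEs and p-values leave this correlation out. The shared slide was a block only among the alternatives. The replicate block left 4 called lower and 0 higher, all 4 among the 10.

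At an unadjusted p under 0.05 with a 2-fold difference, beside 610 lower and 259 higher there were 982 and 686 with the slide as a fixed and 1031 and 611 as a random block, 1036 and 412 with the HP arrays alone, 1465 and 1304 with a replicate block added, 406 and 153 with the sorted populations, 1016 and 497 with array weights, and 945 and 452 with normexp and slide. There were 111 higher with median scaling, 442 higher without a filter, and 1099 lower on the authors' values with slide. Leaving out an array gave 414 to 526 lower and 219 to 571 higher.

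Interaction calls, 0 in the fit reported, were 5, 6 and 5 against HE2, HE1 and SM cells with quantile normalization, 23 against HE1 and 13 against SM on the authors' values, 29 and 10 there with the slide block, and 1 against SM with the random slide block. Interaction calls with an array left out are not given here. Hprt passed the threshold with quantile normalization (1.99), on the authors' values (1.94, also with slide) and with normexp and slide (2.04).

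Directions turned for a few genes, and for the medians of several gene lists, near 0. With quantile normalization Mpo was -0.22. With median scaling Mpo was -0.26 and Runx1 -0.13. On the authors' values, with or without the slide block, Mpo was -0.25 and Runx1 -0.0342, and for the mean of probes Runx1 was -0.20. With each array left out in turn, Mpo ranged from -0.11 to 0.19, Runx1 from -0.17 to 0.52, Cyba from -0.99 to 0.0306, Fos from -0.91 to 0.60 and Jund from -0.66 to 0.12. The cause of these shifts was not tested. Genes at background moved most with the background correction, such as Bcl2a1c, whose fitted difference was -0.82 with normexp.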
